A study of Mus musculus with 20 samples.

Results

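The effect of renal ischemia and reperfusion injury (IRI) was examined in mice that had all received hemin, by setting the 4 arrays of the IRI+Hemin group against the 4 arrays of the Hemin group, 8 of the 20 arrays of the series. The members of the comparison were taken from the sample titles alone. Both groups were C57BL/6 mice given hemin intraperitoneally at 25 mg/kg. In the IRI+Hemin group hemin preceded surgery by 24 h, both renal pedicles were then clamped for 45 min and the kidneys were taken 6 h after reperfusion. The labels give no surgery for the Hemin group, so that operation and clamping cannot be told apart within the comparison. The labels give no sham-operated group and no count of animals, and an array was taken as 1 mouse, so that p-values measure the spread between these arrays. The interval between hemin and collection in the Hemin group is not given in the sources used here. The study also held untreated Control mice, mice with IRI alone and a preconditioned group (IPC+IRI), 4 arrays each. Control and IRI serve below as the same contrast without hemin, and share no array with the main one.

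Hemin is an iron-containing heme that induces heme oxygenase 1, the enzyme that splits heme into biliverdin, carbon monoxide and iron, and it was given here as a protective treatment before the injury. In the kidney the proximal tubule has a high oxygen demand and is the segment most exposed to ischemia. Within hours of reflow, injured tubule cells switch on transcription factors of the AP-1 family, keratins, chemokines and stress response genes, while genes of the differentiated tubule tend to be turned down.

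Each array measured whole kidney RNA, so that fewer cells of a type and less RNA per cell cannot be told apart. Expression is given as log2 expression, the log2 of an array's processed signal for a gene divided by the 75th percentile of that array, so that 0 is that percentile. The 75th percentile signal was 173.8 to 357.9 in IRI+Hemin, with replicate 4 the dimmest, and 255.7 to 323.5 in Hemin. Of all genes, 60.1% to 66.5% and 64.2% to 67.4% were well above background, and the 2 groups correlated at r = 0.9459 to 0.9605 between arrays against 0.9763 to 0.9912 within IRI+Hemin and 0.9882 to 0.9931 within Hemin. Each group was hybridised on a slide of its own and the 2 groups were scanned on different days, so slide and scan day cannot be told apart from ischemia. Spike-in probes stood at -0.35 to 0.32 in IRI+Hemin and at -0.12 to 1.71 in Hemin on the same log2 scale, Hemin replicate 1 being the low array. The proximal tubule markers Slc34a1, Slc5a2, Slc22a6, Lrp2, Cubn, Kap and Slc22a8 were well above background on all 8 arrays.

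A broad set of transcripts differed between the IRI+Hemin and Hemin kidneys. By limma with Benjamini-Hochberg adjustment over 18628 genes, 1079 genes rose (5.79%) and 1584 fell (8.5%) by at least 2-fold at an adjusted p under 0.05, which is the meaning of a called gene below. The strong changes were rises: 69 genes rose by at least 8-fold and 8 fell by as much. The median gene lay at -0.15 on the log2 scale. By unadjusted p alone 3574 genes rose and 6133 fell at a p under 0.05. The balance of called rises and falls moved with the scaling and background correction, rises being 40.5% of the calls here, 33.3% with no scaling between arrays, 50.5% after quantile normalization and 57.7% after normexp background correction, which also cut the calls to 483 rises and 354 falls. The median gene was then at -0.03, and at -0.23 and -0.10 under the other two.

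The gene with the largest measured rise was Krt20, a keratin of simple epithelia. Its log2 expression was -2.98, -3.91, -3.26 and -4.32 in Hemin replicates 1 to 4 and 4.996, 6.09, 5.89 and 3.88 in IRI+Hemin replicates 1 to 4. All 4 ischemic arrays lay far above all 4 others, and replicate 4 was the lowest of them. The log2 fold change was 8.83 ± 0.81 (SE, n = 4 per group), or 456-fold, with a limma adjusted p of 3.92e-07. Atf3, a stress-induced transcription factor, followed with values of -3.25 to -2.84 in Hemin and 2.01 to 4.29 in IRI+Hemin and rose by 5.92 ± 0.58. Next came the small MAF factor Maff at 5.44 ± 0.27 and Chac1, which breaks down glutathione and is a target of the ATF4 stress pathway, at 5.41 ± 0.31. The neutrophil chemokine Cxcl1 rose by 5.39 ± 0.52 and Sox9, a transcription factor of kidney development that returns in injured tubules, by 5.32 ± 0.34. One of the 3 Sox9 probes moved by only 0.78 while the others moved by 5.64 and 6.09.

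The next 6 genes completed the 12 largest rises among genes with a current symbol or synonym that were well above background on all arrays and whose groups did not overlap. Pdk4, a kinase that restrains the entry of pyruvate into the citric acid cycle, stood at 0.93, 0.29, 0.18 and -0.04 in Hemin and at 5.52, 5.71, 5.74 and 5.53 in IRI+Hemin, a log2 fold change of 5.28 ± 0.31. Cdkn1a, the p21 inhibitor of the cell cycle, rose by 4.83 ± 0.28 and Tnfrsf12a, the receptor of the cytokine TWEAK, by 4.76 ± 0.24. The remaining members were Socs3, an inhibitor of cytokine receptor signaling, at 4.37, the transcription factor Egr2 at 4.31 and the cholesterol 25-hydroxylase Ch25h at 4.30.

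**Figure D1:**
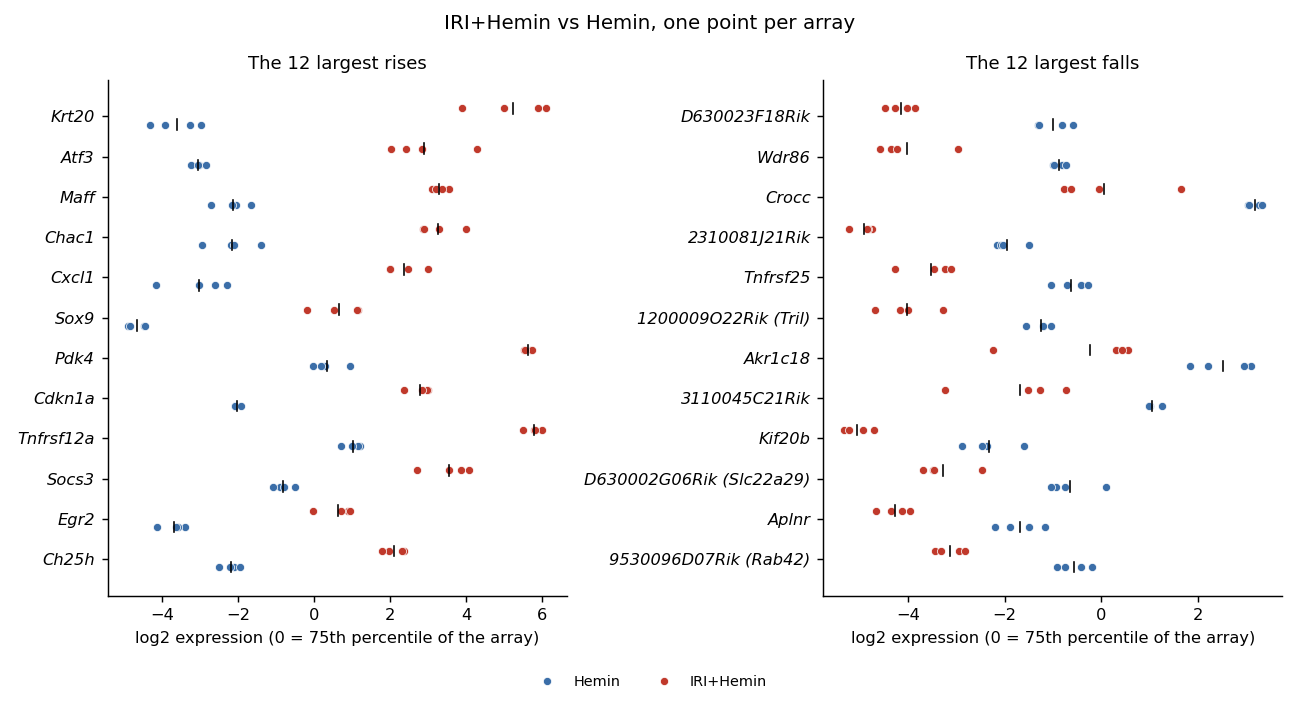
Log2 expression (x axis, 0 is the 75th percentile of an array) of the 12 genes with the largest rise (left) and the 12 with the largest fall (right) among genes well above background on all 8 arrays; each point is 1 array, red for IRI+Hemin and blue for Hemin, and the black bar is the mean of 4. Separate groups were a condition of the choice, Krt20 has the widest gap (-4.32 to -2.98 against 3.88 to 6.09), and IRI+Hemin replicate 4 lies apart from the other ischemic arrays in Crocc (1.65 against -0.77 to -0.04).

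Some transcripts were well above background on the 4 ischemic arrays and on no Hemin array, so that a lower bound of the fold is given, the mean of the bright group over the dim group's mean of, per array, the higher of its own value and the lowest signal among probes well above background. Fosl1, the AP-1 subunit FRA1, was at 0.84, 1.30, 1.24 and 0.20 in IRI+Hemin and at least 68.4-fold higher than in Hemin. Sprr2f, a small proline-rich protein of stressed epithelia, was at least 13.4-fold higher, and the acute phase protease inhibitor Serpina3n at least 9.23-fold. Bounds of at least 6.52-fold for the neutrophil transcript Retnlg and at least 6.4-fold for 5430425J12Rik (current symbol Slc6a19os) followed. In the other direction Tyw3, an enzyme of transfer RNA modification, was well above background only in Hemin and at least 7.08-fold lower in IRI+Hemin. Of the 12 genes given by a bound here and below, 9 were not called after normexp background correction and 3, Fosl1, Sprr2f and Serpina3n, were. In the gene lists that follow, 10 of the 180 called members were well above background in no array of the lower group and so had passed the filter through the group where they were high.

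Genes of the AP-1 and small MAF family rose nearly throughout. These basic leucine zipper proteins pair with one another and bind the promoters of stress and injury genes. Of 13 members tested, 11 rose and none fell, against 5.79% and 8.5% of all genes, and the median of the list was 1.73 on the log2 scale against -0.15 over all genes. The same shares of all genes, 5.79% for rises and 8.5% for falls, are the background of every list count below. Fos was at -4.62, -2.61, -4.13 and -2.97 in Hemin and at 0.42, -0.71, -0.17 and 1.07 in IRI+Hemin, a difference of 3.73 ± 0.67. The subunits that were already well expressed rose less, Junb by 2.28 ± 0.22, Jund by 1.64 ± 0.30 and Jun by 1.47 ± 0.25. Fosb (2.10), Mafk (1.69), Fosl2 (1.73) and Batf (1.18) were also called. Mafg (0.40) and Batf3 (0.23) were not called.

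The early growth response, nuclear receptor and Kruppel-like genes that serum and stress induce within minutes to hours were likewise raised at 6 h. In this list 14 of 16 tested genes rose and none fell, with a median of 1.85, and Klf2 (0.92) and Srf (0.67) stayed under 2-fold. Egr2 was at -4.14 to -3.40 in Hemin and -0.02 to 0.93 in IRI+Hemin. Myc, a driver of growth and ribosome synthesis, rose by 3.74 ± 0.26, Klf6 by 3.49 ± 0.21, the growth-restraining gene Btg2 by 2.85 ± 0.27 and the orphan receptor Nr4a1 by 2.69 ± 0.36. Klf5, called at 1.91, was at -0.52 in the deposited matrix of processed values.

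Promoters from the RefSeq annotation of GRCm38.p6 were searched on both strands, within 250 bases before the start, for the AP-1 site (TGACTCA or its other strand TGAGTCA), the cyclic AMP response element or CRE (TGACGTCA), the NF-kappaB site, the serum response element, the core of the antioxidant response element (TGACNNNGC) and the hypoxia factor core (ACGTG). An AP-1 site was found in 8.75% of the 777 promoters of called rises, in 3.08% of the 1170 promoters of called falls, in 3.52% of those of all genes tested and in 4.46% of all 32851 promoters of the table. For CRE the shares were 3.47%, 1.11%, 2.3% and 1.55%, for the NF-kappaB site 13.1%, 7.44%, 8.71% and 7.25%, and for the serum response element 1.93%, 0.513%, 1.27% and 1.47%. The antioxidant core was in 14.2%, 11.8%, 11.6% and 10.2%, and the hypoxia core in 18.9%, 17.0%, 20.2% and 16.6%. A CRE site differs from an AP-1 site by the added central base, so that neither holds the other. By its letters an antioxidant core can overlap an AP-1 site but not a CRE. These shares are descriptions of letters in a window and were not tested. Overlap of NF-kappaB matches with one another was counted once per promoter. Below are 250 bases upstream of 6 called genes that represent 3 of these motifs and the groups described in this report, read 5′ to 3′ on the gene's own strand, with the capitals marking the AP-1 site in Plaur and F3, 2 AP-1 sites in Srxn1, the AP-1 site (far end) and the NF-kappaB site (near end) in Il6, 2 overlapping NF-kappaB matches in Cxcl1 and 2 CRE sites in Dusp8.
Plaur (chr7:24462233-24462482, plus strand): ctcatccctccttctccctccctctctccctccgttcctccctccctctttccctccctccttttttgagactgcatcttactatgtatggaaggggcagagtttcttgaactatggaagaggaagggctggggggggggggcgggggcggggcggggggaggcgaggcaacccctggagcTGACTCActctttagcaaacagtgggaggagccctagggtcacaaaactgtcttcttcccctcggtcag
F3 (chr3:121723287-121723536, plus strand): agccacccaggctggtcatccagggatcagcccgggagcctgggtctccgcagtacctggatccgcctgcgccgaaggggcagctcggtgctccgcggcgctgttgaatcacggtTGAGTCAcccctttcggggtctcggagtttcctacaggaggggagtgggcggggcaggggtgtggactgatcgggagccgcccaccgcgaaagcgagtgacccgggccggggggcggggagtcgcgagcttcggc
Srxn1 (chr2:152105274-152105523, plus strand): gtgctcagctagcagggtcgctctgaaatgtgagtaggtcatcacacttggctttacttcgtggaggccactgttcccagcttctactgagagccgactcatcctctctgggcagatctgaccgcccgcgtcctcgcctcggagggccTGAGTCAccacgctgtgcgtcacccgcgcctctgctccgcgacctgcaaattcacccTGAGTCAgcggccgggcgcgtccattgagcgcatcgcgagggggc
Il6 (chr5:30012864-30013113, plus strand): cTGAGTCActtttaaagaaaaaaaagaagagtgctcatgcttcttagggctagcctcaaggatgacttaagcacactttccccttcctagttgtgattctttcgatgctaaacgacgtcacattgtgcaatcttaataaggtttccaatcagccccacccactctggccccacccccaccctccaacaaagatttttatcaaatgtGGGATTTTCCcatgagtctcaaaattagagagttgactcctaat
Cxcl1 (chr5:90890995-90891244, plus strand): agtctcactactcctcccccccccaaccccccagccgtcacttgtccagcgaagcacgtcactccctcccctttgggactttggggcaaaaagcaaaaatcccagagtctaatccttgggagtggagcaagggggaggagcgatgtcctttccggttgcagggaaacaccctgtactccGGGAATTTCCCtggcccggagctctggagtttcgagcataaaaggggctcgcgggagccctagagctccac
Dusp8 (chr7:142095285-142095534, minus strand): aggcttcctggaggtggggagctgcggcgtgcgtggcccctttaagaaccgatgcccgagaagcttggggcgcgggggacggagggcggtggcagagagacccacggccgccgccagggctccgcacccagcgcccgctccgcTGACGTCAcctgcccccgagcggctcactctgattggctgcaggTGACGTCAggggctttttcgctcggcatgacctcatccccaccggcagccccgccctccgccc

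The 6 genes shown rose by 3.75 (Plaur, the urokinase receptor), 2.44 (F3, tissue factor, the trigger of coagulation), 2.85 (Srxn1, which repairs oxidised peroxiredoxins), 5.39 (Cxcl1) and 3.22 (Dusp8, a phosphatase that inactivates stress kinases), while Il6 was at least 6.07-fold higher. Srxn1 stood at 1.74, 1.88, 1.71 and 1.86 in Hemin and at 4.66, 4.99, 4.60 and 4.34 in IRI+Hemin. Dusp8 stood at -3.13, -3.04, -2.80 and -3.13 and at 0.41, 0.02, 0.02 and 0.31. In both genes the groups were far apart and the arrays within a group lay within 0.7 of one another.

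Established markers of tubular injury were raised as a group, with 16 of 25 tested genes called higher, none lower and a median of 1.57. Beyond Krt20 and Sox9, the largest were Lcn2 (the iron-siderophore binding protein NGAL) at 4.00 ± 0.43 and Gdf15, a stress-induced cytokine, at 3.77 ± 0.31. Gdf15 ran from 0.30 to 1.17 in Hemin and from 3.85 to 4.95 in IRI+Hemin. Krt8, the keratin that polymerises with Krt18 in simple epithelium, was at 4.10, 4.22, 4.25 and 4.28 in Hemin and 6.71, 6.89, 6.57 and 6.86 in IRI+Hemin, and rose by 2.54 ± 0.11. The poliovirus receptor Pvr (2.77), Timp1 (1.88), Anxa1 (1.90), Cd44 (1.57) and Krt18 (1.60) were called as well. Havcr1, which encodes the injury marker KIM-1, was not called at this time (0.48, adjusted p = 0.246), nor was Clu (0.36). The 2 Havcr1 probes differed, at 1.52 for the dimmer and 0.32 for the brighter, both well above background on all 8 arrays.

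The 3 fibrinogen chains, which are best known as liver products, rose in the ischemic kidney and were spread widely over the ischemic arrays. Fgg was at 1.68, 1.48, 1.88 and 1.98 in Hemin and at 5.45, 3.56, 4.24 and 2.43 in IRI+Hemin. Replicate 1 was the highest and replicate 4 the lowest of the ischemic arrays, in Fga and Fgb too, yet all 4 Fgg values exceeded the Hemin range. The log2 fold changes were 2.75 ± 0.44 (Fga), 2.16 ± 0.48 (Fgg) and 1.63 ± 0.45 (Fgb), and Fgb overlapped between groups (-0.9952 to 1.78 against -1.85 to -0.74).

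**Figure D2:**
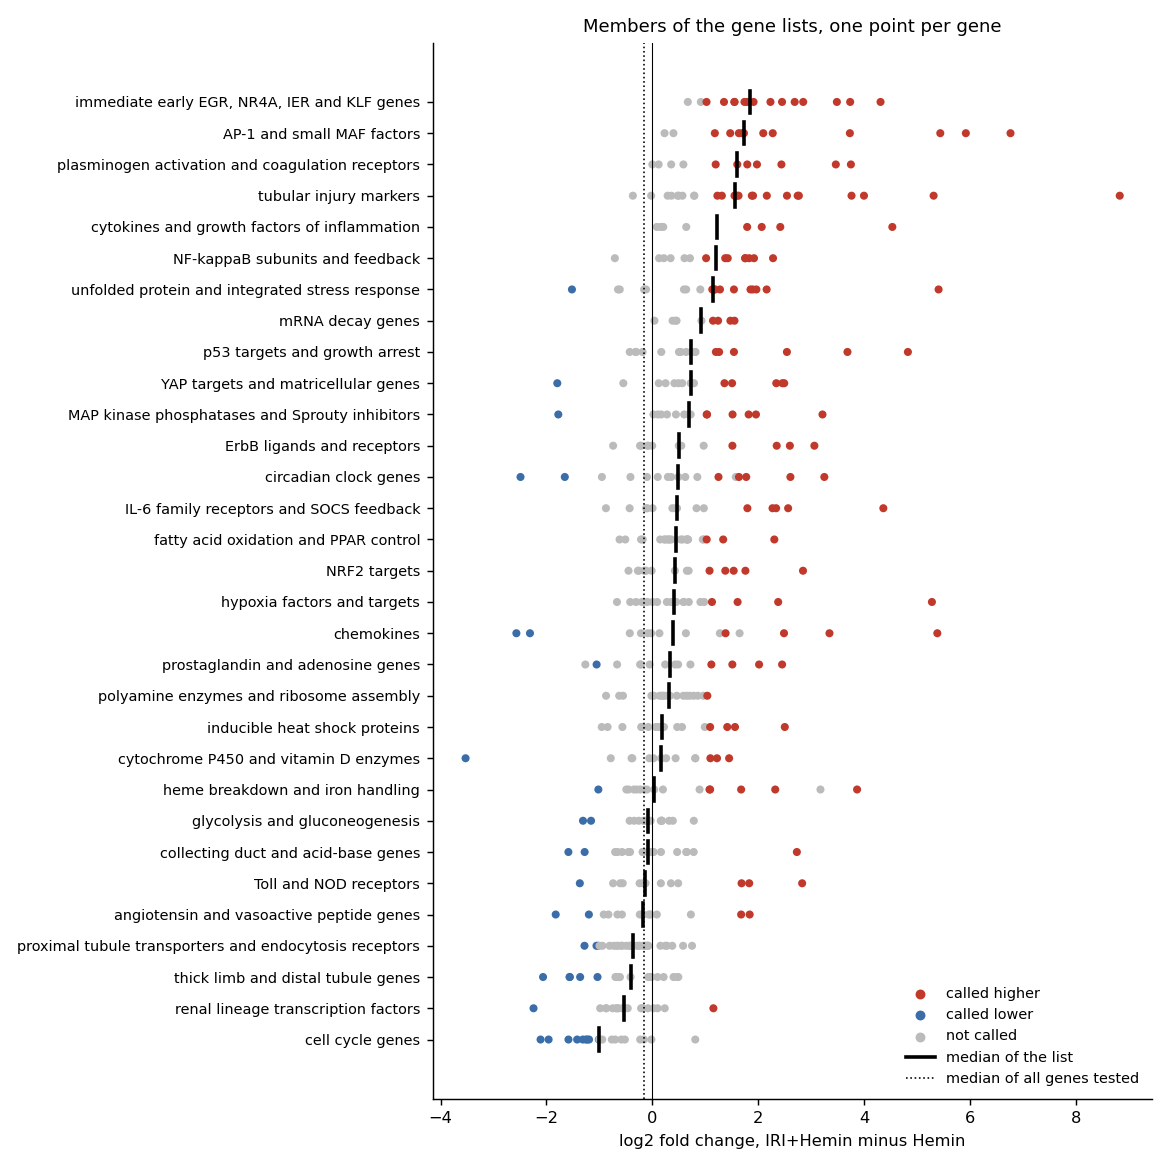
Log2 fold change of IRI+Hemin minus Hemin (x axis) for each tested member of 31 gene lists (y axis), ordered by the list's median; each point is 1 gene, red when called higher, blue when called lower and grey otherwise, and the black bar is the median of the list. The immediate early list (median 1.85) and the AP-1 list (1.73) lead and hold no called fall, the cell cycle list (-0.9995) comes last, and the dotted line marks the median of all 18628 genes (-0.15).

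Heme oxygenase 1 was measured on top of an earlier dose of its inducer. Hmox1 stood at 1.69, 1.91, 2.20 and 1.93 in Hemin and at 5.38, 6.12, 6.61 and 5.08 in IRI+Hemin, a rise of 3.87 ± 0.46 (limma adjusted p = 6.24e-06). The groups were separate, and the ischemic arrays spread over 1.53 log2 units. Hmox2, the constitutive enzyme, was at -0.10, and the biliverdin reductases Blvra and Blvrb at -0.23 and -0.35, none of them called. Bach1, the heme-sensing repressor of Hmox1, rose by 2.32 ± 0.30 from -2.34 to -1.54 in Hemin to -0.17 to 0.81. Alas1, the first enzyme of heme synthesis, rose by 1.09 ± 0.22 and the ferroxidase ceruloplasmin (Cp) by 1.68 ± 0.25. The transferrin receptor Tfrc fell by 1.02, a call lost with any of 4 of the 8 arrays left out, and the zinc and iron carrier Slc39a14 rose by 1.08. Of the 17 genes of heme and iron handling tested, 5 rose and 1 fell, with a median of 0.04. The ferritin chains Fth1 (0.04) and Ftl1 (0.20) were not called, nor was haptoglobin (Hp), whose value of 3.18 came from arrays of -1.26 to 4.75 and -3.41 to 1.65 (adjusted p = 0.194).

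Targets of NRF2, the factor that binds the antioxidant response element, were split. Of 15 tested, 5 rose and none fell, with a median of 0.43. Beside Srxn1 these were Osgin1 (1.76), the rate-limiting glutathione enzyme Gclc (1.54), thioredoxin reductase Txnrd1 (1.38) and the quinone reductase Nqo1 (1.08). Gclm, the partner subunit of Gclc, was at -0.45 and the catalase gene Cat at -0.13, neither called. The glutathione transferases Gsta1 (-0.11) and Gsta2 (-0.27) were not called either.

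Of 14 chemokine genes tested 4 rose and 2 fell, with a median of 0.39. Cxcl1 was at -4.17, -2.60, -2.29 and -3.04 in Hemin and at 2.46, 2.00, 2.99 and 2.00 in IRI+Hemin. Cxcl2, a related neutrophil attractant, was well above background on 3 of 4 ischemic arrays and on no Hemin array, and at least 2.24-fold higher. The monocyte chemokine Ccl2 stood at -2.84, -2.67, -1.94 and -2.71 in Hemin and at -0.53, 0.79, -0.25 and -0.22 in IRI+Hemin and rose by 2.49 ± 0.46. Cxcl10 was called at 1.39, although IRI+Hemin replicate 2 lay within the Hemin range of -0.23 to 0.52, and its call was lost with any of 6 of the 8 arrays left out and under 2 other settings. The 2 chemokine genes that fell were Ccl12, which recruits monocytes (at least 2.9-fold lower), and Cxcl9, which interferon induces and which recruits T cells. Cxcl9 was at -3.42 to -2.42 in Hemin and at -7.30 to -2.60 in IRI+Hemin, where 1 of 4 arrays was well above background, so that the size of its fall is not given. The call of Cxcl9 was lost with any of 7 of the 8 arrays left out and under 4 other settings. The monocyte chemokines Ccl7 (1.65) and Ccl8 (-0.21) were not called.

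Among 8 cytokines tested, 4 rose and none fell. These were Il6, the IL-6 family member Clcf1 (2.07 ± 0.20), and Csf1 (1.79 ± 0.21) and Il34 (2.42 ± 0.23), both ligands of the macrophage growth factor receptor. Il6 was at -3.45, -1.61, -2.31 and -3.02 in IRI+Hemin, and no Hemin array was well above background. On the receptor side, Osmr, which binds oncostatin M, rose by 2.57 ± 0.35, the transcription factor Stat3 by 2.27 ± 0.19, Bcl3 by 2.34, the kinase gene Pim1 by 1.80 and the feedback inhibitor Socs3 by 4.37 ± 0.29. Socs3 was at -0.91, -0.79, -0.49 and -1.07 and rose to 4.08, 3.87, 3.55 and 2.69. Of 15 genes of the IL-6 receptor family and its feedback, 5 rose and none fell. Il6st, the shared receptor chain (0.44), and Socs1 (-0.12) were not called.

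The NF-kappaB system showed rises of both subunits and inhibitors. Of 14 tested genes 8 rose and none fell, with a median of 1.20. Rela, the main activating subunit, was at 0.47, 0.52, 0.35 and 0.39 in Hemin and 2.38, 2.17, 2.18 and 2.33 in IRI+Hemin and rose by 1.83 ± 0.09. Relb rose by 2.28, Nfkb2 by 1.76, the inhibitor Nfkbia by 1.75 and the ubiquitin editing enzyme Tnfaip3 by 1.92. Upstream, the coreceptor of bacterial lipids Cd14 rose by 2.83 ± 0.29, Tlr2 by 1.69 and the inhibitory kinase Irak3 by 1.83, whereas Tlr3, the receptor for double-stranded RNA, fell by 1.37 and Tlr4 (-0.17) was not called. In all, 3 of 14 Toll and NOD receptor genes rose and 1 fell, shares of 21.4% and 7.14% against 5.79% and 8.5% of all genes. Under at least 1 other setting the fall of Tlr3 was not called.

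Neutrophil transcripts and genes of activated endothelium were read beside these groups. Of 9 neutrophil genes on the array 6 passed the filter, 3 of them (Retnlg, Csf3r and Mmp8) through IRI+Hemin alone, and the calls of these 3 were lost after normexp correction. The summed level of the list was 2.23 to 10.07 times the 75th percentile in IRI+Hemin and 0.531 to 1.652 in Hemin, IRI+Hemin replicate 4 being the lowest ischemic array. Without hemin the same sum was 2.65 to 8.66 in IRI and 0.305 to 0.613 in Control. S100a9, a calcium-binding protein of neutrophils, was at -1.46, -1.38, 0.42 and -0.28 and rose to 2.16, 3.04, 2.52 and 0.89. Retnlg, Csf3r and Mmp8 were well above background on no Hemin array, while the granule genes Camp and Ngp were at or near background in both groups. Icam1, the endothelial ligand of leukocyte integrins, rose by 1.95 and Vcam1 by 1.19, while the third gene of that list, the selectin Selp, was at -0.44 and not called. The summed level of activated endothelium was 5.09 to 8.01 against 1.66 to 1.98. Among macrophage genes Cd68, a lysosomal protein, was the one called (2.14), with the receptor gene Csf1r at -0.12, Emr1 at -0.09 and Lyz2 at 0.15. The macrophage and monocyte sum was 10.35 to 16.16 in IRI+Hemin and 7.755 to 10.32 in Hemin, adjacent ranges that did not overlap. The part of these cells in the rises of chemokines and cytokines was not tested.

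Fat cell transcripts varied from array to array in both groups, from 17.95 to 67.89 in summed level in IRI+Hemin and from 6.03 to 28.48 in Hemin, and none of 5 tested was called. B cell sums were 0.16 to 0.231 in IRI+Hemin and 0.345 to 0.402 in Hemin and Cd79b fell by 1.29, with Ms4a1, Pax5 and Cd79a at or near background. The endothelial sum was 52.0 to 60.2 in IRI+Hemin and 38.6 to 50.8 in Hemin, and the list was called once in each direction, for the nitric oxide synthase Nos3 (2.11) and for Sox18 (-1.13), the latter call being lost with any of 6 of the 8 arrays left out and under 6 other settings. In the fibroblast list the collagen genes Col1a1 and Col3a1 fell by 2.11 and 1.53 and Pdgfrb (0.34) and Acta2 (0.05) were not called. Of 7 podocyte genes tested 1 was called lower and none higher, a share of 14.3% against 8.5% of all genes. Under at least 1 other setting none was called lower. Nphs1, which encodes nephrin of the slit diaphragm, was at -0.29 and not called. The podocyte sum was 4.54 to 6.18 in IRI+Hemin and 6.67 to 8.11 in Hemin.

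**Figure D3:**
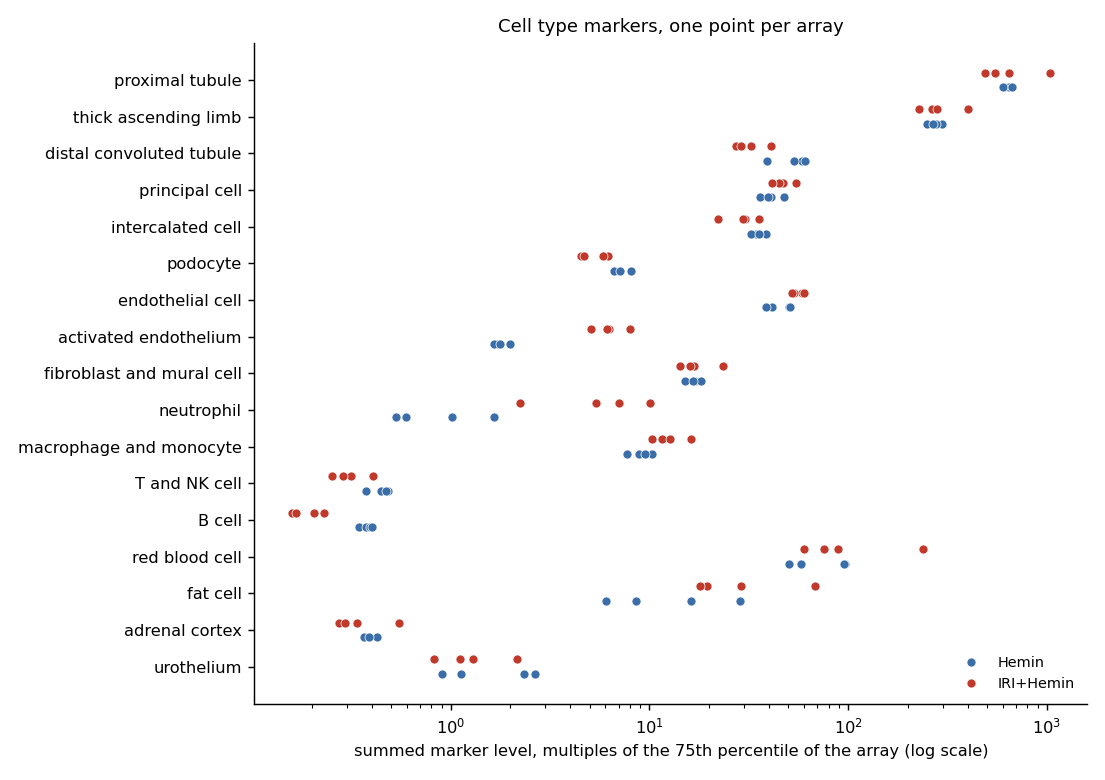
Summed level of each cell type's marker genes (x axis, log scale, in multiples of the 75th percentile of an array), 1 point per array, red for IRI+Hemin and blue for Hemin. The neutrophil sums (2.23 to 10.07 against 0.531 to 1.652) and the activated endothelium sums (5.09 to 8.01 against 1.66 to 1.98) do not overlap, while the proximal tubule sums do (488.8 to 1034 against 601 to 666.3). The endothelial and the macrophage and monocyte sums, higher in IRI+Hemin, and the podocyte and B cell sums, lower in it, do not overlap either.

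Genes of plasminogen activation and coagulation at the cell surface rose in 7 of 11 cases and fell in none, with a median of 1.61. The urokinase receptor Plaur was at -1.82, -1.95, -1.38 and -1.60 in Hemin and 2.04, 2.32, 2.31 and 1.59 in IRI+Hemin. Tissue plasminogen activator (Plat) rose by 1.79, thrombomodulin (Thbd) by 1.98 and the thrombin receptor F2r by 1.61. Plau, which encodes urokinase itself, was at 0.12 and not called. YAP targets and matricellular genes rose in 5 of 15 cases, led by Ankrd1 (2.49 ± 0.30) and Cyr61 (2.46 ± 0.46), and 1 fell, Tgfb2 (-1.79 ± 0.36). In the ErbB system 4 of 13 genes rose, the ligands Nrg1 (3.06 ± 0.19), Hbegf (2.35 ± 0.43) and Areg (at least 1.72-fold higher, measured on 3 of 4 ischemic arrays) and the receptor inhibitor Errfi1 (1.51 ± 0.17), and Egf, a transcript of the distal tubule, was at -0.23.

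In a list of dual-specificity phosphatases, which switch off MAP kinases, and Sprouty inhibitors, 6 of 16 tested genes rose and 1 fell. Dusp1 (1.52), Dusp2 (1.96), Dusp10 (1.82), Dusp4 (1.03) and Dusp14 (1.03) rose beside Dusp8. The Dusp14 call was lost with any of 3 arrays left out and under 4 other settings, and the Dusp4 call with 1 array left out and under 3 other settings. Dusp9 fell by 1.78 ± 0.26, from -0.55 to 0.06 in Hemin to -2.45 to -1.40 in IRI+Hemin. Of 9 genes of mRNA decay 4 rose, among them Btg3 (1.55 ± 0.12) and Zfp36 (1.48), the protein that destabilises cytokine messages. In the prostaglandin and adenosine list 4 of 14 rose and 1 fell. Ptgs2 (cyclooxygenase 2) was at -4.67 to -3.60 in IRI+Hemin and at -7.12 to -5.42 in Hemin, where 1 of 4 arrays was well above background. It was called higher, but after normexp correction it was at 0.36 and not called. The ATP-degrading enzyme Entpd1 rose by 2.02 and the adenosine receptor Adora2b by 1.51, while the prostaglandin-degrading enzyme Hpgd fell by 1.05.

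The integrated stress response and unfolded protein response were raised in part. Of 18 genes tested, 10 rose and 1 fell, with a median of 1.16. Chac1 was at -2.19, -2.94, -1.40 and -2.10 in Hemin and 3.29, 2.85, 2.88 and 3.99 in IRI+Hemin. Ddit3 (CHOP) rose by 1.90 ± 0.38 with replicate 4 at 2.74 above the other ischemic arrays (0.51 to 1.08), Asns by 1.97, Trib3 by 1.86, Atf4 by 1.18 and Myd116 (GADD34) by 2.16. Of the chaperones of the endoplasmic reticulum, Hspa5 rose by 1.13, Hsp90b1 (-0.15) and Calr (-0.61) were not called, and the cofactor Sdf2l1 fell by 1.52. In the cytosol, Hspb1 rose by 2.50 ± 0.28 and Hspa1a by 1.56, 4 of 17 heat shock genes being called higher, and Dnajb1 (0.07) and Hsp90aa1 (0.19) were not called.

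Growth arrest genes of the p53 list rose in 6 of 18 cases. Cdkn1a was at -2.09, -2.08, -2.08 and -1.92 in Hemin and 2.98, 2.97, 2.83 and 2.37 in IRI+Hemin. The polo-like kinase gene Plk3 rose by 3.69 ± 0.47 and Gadd45b by 2.54 ± 0.29. The apoptosis genes Bax (-0.30), Pmaip1 (0.50) and Bbc3 (0.74) were not called, and the death receptor Fas rose by 1.54. Hypoxia genes were raised in 4 of 20 cases. Adm, a vasodilator peptide, rose by 1.61 ± 0.14 and Hk2 by 2.38 ± 0.77 beside Pdk4 and Ddit4 (1.13), whereas Vegfa (-0.31), Ldha (-0.20) and Pdk1 (-0.42) were not called. The Hk2 call was lost with either of 2 of the 8 arrays left out, and the Ddit4 call with 1 array left out and under 1 other setting.

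Of 22 genes of fatty acid oxidation tested 3 were called higher and none lower. At an adjusted p under 0.05 with any fold 11 rose and 1 fell, where 16.5% and 27.9% of all genes did, and the median was 0.45. Ppara, the receptor that drives the pathway, was at 1.88, 2.28, 1.89 and 1.96 and rose to 3.19, 3.76, 3.52 and 2.90, by 1.34 ± 0.23. The thioesterase Acot1 rose by 1.03, a call lost with any of 3 of the 8 arrays left out, Ehhadh was at 0.95 and Hadha at 0.67. The groups did not overlap in Ppara. Genes of glycolysis and gluconeogenesis were mostly level, with 2 of 17 lower, a share of 11.8% that is near the 8.5% of all genes. These were the glucose carrier Slc2a2 (-1.31 ± 0.19) and Eno1 (-1.16 ± 0.45), where replicates 2 and 4 alone were low at -1.07 and -0.59. The Eno1 call was lost with any of 6 of the 8 arrays left out and under 5 other settings.

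Of 15 cytochrome P450 genes 3 rose, Cyp2a5 (1.45 ± 0.24), Cyp4a12a (1.22 ± 0.36) and Cyp1b1 (1.10 ± 0.40), and the groups overlapped in the latter pair. The Cyp1b1 call was lost with any of 5 of the 8 arrays left out and under 4 other settings. Cyp1a1, the classical target of the aryl hydrocarbon receptor, was well above background on the 4 Hemin arrays alone and at least 3.29-fold lower in IRI+Hemin. Of 17 clock genes 5 rose and 2 fell, with Nfil3 at 3.25 ± 0.35 and Per1 at 1.77 ± 0.41 against Dbp at -2.49 ± 0.57 and Per3 at -1.65. The shares were 29.4% and 11.8% against 5.79% and 8.5% of all genes, so that the falls were near the background. Under other settings 1 to 3 clock genes were called lower. The hours of the day at which the kidneys were taken are not given in the sources used here, so time of day cannot be told apart from group. Among 19 genes of polyamine synthesis and ribosome assembly, 1 was called, Rrp12 (1.04), a share of 5.26% against 5.79% of all genes, and this call was lost with any of 3 of the 8 arrays left out and under 3 other settings.

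Cell cycle genes were the list with the most called falls. Of 19 tested 9 fell and none rose, 6 of the 9 measured in both groups and 3 (Cdc2a, Ccnb1 and Top2a) passing the filter through Hemin alone. Mki67, a marker of cycling cells, was at -2.14, -0.76, -2.41 and -1.66 in Hemin and -3.51, -3.36, -3.23 and -3.21 in IRI+Hemin, a fall of 1.58 ± 0.48. Hemin replicate 2 had the highest value, and it did so too in Ccnb2 (-0.02), Cdc20 (0.26) and Aurka (-0.89). Without that array 4 of the 9 calls were kept, 5 were lost and Mcm3 was gained. Ccnd1, the cyclin of the G1 phase, did not share this pattern, at 3.73, 3.80, 3.87 and 3.71 in Hemin and 2.64, 2.65, 2.26 and 2.78 in IRI+Hemin, a fall of 1.20 ± 0.21. Cdc2a (CDK1) was at least 1.66-fold lower. The replication helicase genes Mcm2, Mcm3, Mcm5 and Mcm6 were at -0.58 to -0.9995, under 2-fold, and Pcna was at 0.81. After normexp background correction 1 of the 19 genes was called lower.

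Of 31 proximal tubule carriers and endocytosis receptors 3 were called lower, a share of 9.68% that is close to the 8.5% of all genes, and none higher. At an adjusted p under 0.05 with any fold 15 fell, against 27.9% of all genes, and 2 rose, with a median of -0.36. The endocytosis receptors megalin (Lrp2) and cubilin (Cubn) were at -0.68 and -0.73. The called members were the amino acid exchanger Slc7a8 (-1.28 ± 0.25), the phosphate carrier Slc34a3 (-1.05 ± 0.23) and the sodium-proton exchanger Slc9a3 (-1.03 ± 0.25). The calls of Slc34a3 and Slc9a3 were each lost with either of 2 of the 8 arrays left out, and under 1 and 3 other settings. Further along the nephron 5 of 19 genes fell. Klhl3, an adaptor that controls the thiazide-sensitive cotransporter, was at 0.48, 0.46, 0.21 and 0.34 in Hemin and at -1.61, -2.06, -1.66 and -1.43 in IRI+Hemin and fell by 2.06 ± 0.23. Bsnd, the beta subunit of kidney chloride channels, fell by 1.56, the potassium channel Kcnj1 by 1.36, parvalbumin (Pvalb) by 1.56 and calbindin (Calb1) by 1.03, the last call being lost with any of 4 arrays left out. Slc12a1 (-0.06), Slc12a3 (0.21) and Umod (0.40), the usual markers of these segments, were not called.

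In the collecting duct the vasopressin receptor Avpr2 fell by 1.58 ± 0.28 and the anion exchanger Slc4a1, which red blood cells also carry, by 1.28 with overlapping groups, the aldosterone-induced kinase Sgk1 rose by 2.73 ± 0.41, and Aqp2 (0.65) was not called, so that 1 of 20 genes rose and 2 fell, near the 5.79% and 8.5% of all genes. The brighter Sgk1 probe moved by 2.735 and the dimmer, at background on all 8 arrays, by -1.07. The Sgk1 call was lost under at least 1 other setting. Of 20 transcription factors of the renal lineage 1 was called lower, Sim1 at -2.24 ± 0.28, and 1 higher, Pax8 at 1.16 ± 0.24, each 5% against 8.5% and 5.79% of all genes. Of these 20, 10 fell at an adjusted p under 0.05 with any fold, against 27.9% of all genes. Of 15 genes of vasoactive peptides, the vasoconstrictor Edn1 (1.84) and its receptor Ednrb (1.68) rose and the receptor genes Mas1 (-1.82) and Npr3 (-1.20) fell. These are 13.3% each way, against 5.79% and 8.5% of all genes. Under other settings as few as 1 rise and as few as 0 falls were called in this list.

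By the same conditions the largest falls were smaller than the largest rises, between 5.92-fold and 8.92-fold. D630023F18Rik was at -1.31, -0.81, -1.30 and -0.59 in Hemin and -4.03, -4.27, -4.48 and -3.86 in IRI+Hemin, a log2 fold change of -3.16 ± 0.28. It was followed by Wdr86 (-3.15 ± 0.37) and Crocc, which encodes the rootlet protein of cilia (-3.13 ± 0.53). The death domain receptor Tnfrsf25 fell by 2.91, the aldo-keto reductase Akr1c18 by 2.77, the mitotic kinesin Kif20b by 2.73 and the apelin receptor Aplnr by 2.59. Of the 3 Kif20b probes 1 carried the fall (-3.36) and the others were at -0.24 and -0.40. The remaining genes are listed under clone names: 2310081J21Rik, 3110045C21Rik, 1200009O22Rik (Tril), D630002G06Rik (Slc22a29) and 9530096D07Rik (Rab42).

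The study also took 7 genes to quantitative RT-PCR, and they are given here as the arrays show them. Fosl1, Cxcl1, Socs3 and Hmox1 rose, Hoxd4 fell by 1.32, and Ccl5 (-0.02) and Muc20 (-0.30) were not called. The exact two-sided permutation test of 4 against 4 arrays gave its smallest possible p, 0.0286, for the first 5 and 0.914 and 0.657 for Ccl5 and Muc20. For Fosl1, which passed the filter through IRI+Hemin alone, this p adds no support. Hoxd4, a positional transcription factor, was at 1.95, 2.07, 2.55 and 1.92 in Hemin and at 0.29, 1.14, 0.92 and 0.84 in IRI+Hemin.

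The same contrast was next read in kidneys without hemin, on the IRI and Control arrays. There 1057 of 17711 genes rose (5.97%) and 2530 fell (14.3%) by the same rule. Rises were 29.5% of these calls, 74.7% after normexp correction and 46.5% after quantile normalization. Of the 17281 genes tested in both contrasts, 956 rose with hemin and 1029 without, and 658 rose in both, 68.8% of the former and 63.9% of the latter. Of falls, 1378 were called with hemin and 2282 without, and 786 were shared, 57% and 34.4%. A set of 31 genes rose with hemin and fell without, and 3 did the reverse. Across these genes, which are not independent replicates, the log2 fold changes correlated at r = 0.733. Of the 658 shared rises 451 were smaller with hemin, but in a test of the difference itself 24 of these passed at an adjusted p under 0.05, as did 5 of those that were larger.

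**Figure D4:**
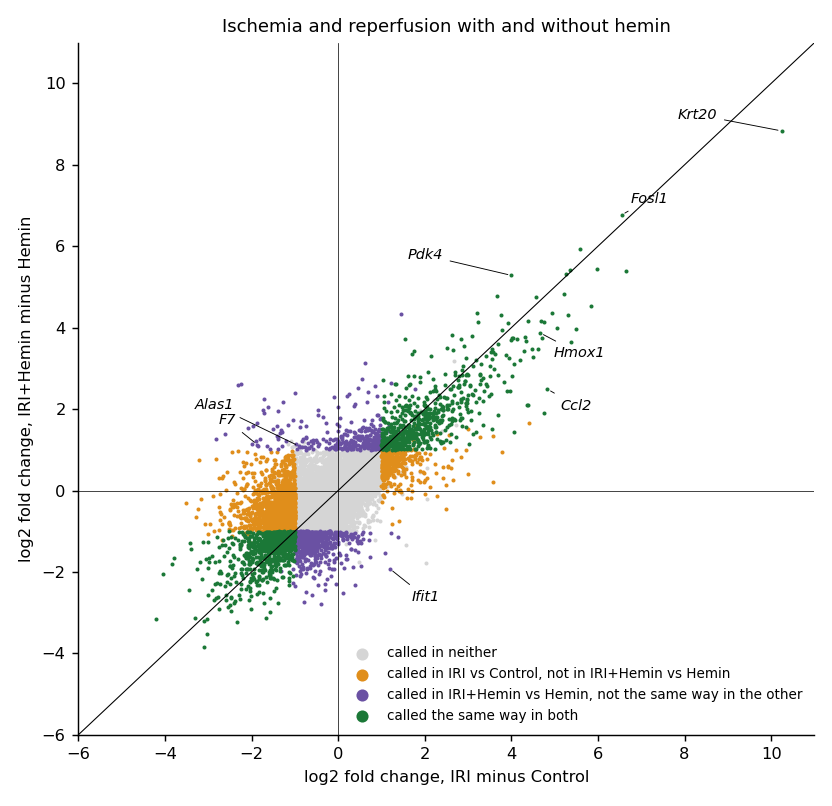
Log2 fold change of IRI minus Control (x axis) against IRI+Hemin minus Hemin (y axis) for the 17281 genes tested in both, 1 point per gene; green genes were called the same way in both (658 rises and 786 falls), purple genes in the hemin contrast, orange genes in the other, and the line marks equal change. Krt20 and Fosl1 lie at the top right near the line, Ccl2 lies below it (2.49 against 4.83), and F7 and Alas1 rose on the vertical axis while falling or lying below 0 on the horizontal one.

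None of the 12 largest rises passed the test of the difference between the settings, with adjusted p of 0.0861 to 0.965 by limma and log2 differences of -1.41 to 1.28. With and without hemin the log2 fold changes were 8.83 and 10.24 for Krt20, 5.92 and 5.57 for Atf3, 5.44 and 5.98 for Maff, 5.32 and 5.26 for Sox9 and 5.28 and 4.00 for Pdk4. For Hmox1 they were 3.87 and 4.67, a difference of -0.80 with an adjusted p of 0.519. In the AP-1 list 11 of 13 genes rose in each contrast, in the injury list 16 and 15 of 25, and in the immediate early list 14 and 13 of 16. Fatty acid oxidation had 3 called rises of 22 with hemin and none without, and the cell cycle list 9 called falls of 19 with hemin and 1 of 16 without. Called in one contrast and not in the other is not a difference by itself. The test of the difference passed for 2 of the 22, Ppargc1a and Ehhadh, and for 1 of the 19, Mcm3. These genes were under 2-fold with hemin and so not among the called rises and falls.

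The change after ischemia minus the change without hemin was tested in 19058 genes. It was positive in 1112 (5.83%) and negative in 373 (1.96%) at an adjusted p under 0.05. Of the positive genes, 507 were called lower without hemin and not called with it. Over all 1112 the median log2 fold change was 0.25 with hemin and -1.11 without. The negative genes had medians of -0.58 and 0.30. The counts depended on the settings. Normexp background correction left 117 and 29 and no scaling between arrays 321 and 84, and positive differences were 74.9% of calls here, 64.6% after quantile normalization and 88.8% in the deposited matrix. The negative count was 575 without IRI replicate 4, 235 without Hemin replicate 1 and 222 without Hemin replicate 3. The 4 groups lie on 4 slides and 3 scan days, and the 18S ribosomal transcript Rn18s was at 3.16 to 7.74 in Control and IRI against 7.23 to 7.67 in the hemin groups. The part of slide and ribosomal signal in the differences was not tested.

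The 6 largest positive differences, among genes well above background on all 16 arrays, were F7, Ddx25, Rtbdn, S100a3, A430110N23Rik (Ssc5d) and Slc16a14. F7, coagulation factor VII, was at -3.45, -3.58, -3.71 and -3.33 in Hemin and -2.20, -2.78, -2.59 and -1.98 in IRI+Hemin, but at -1.78, -0.82, -2.00 and -1.94 in Control and -3.52, -3.17, -2.85 and -4.47 in IRI. It thus rose by 1.13 with hemin and fell by 1.87 without, a difference of 3.00 (adjusted p = 0.000344). Ddx25, an RNA helicase, differed by 2.78 and Rtbdn, S100a3, A430110N23Rik and Slc16a14 by 2.77, 2.75, 2.71 and 2.57. The adjusted p of Ddx25 was 0.0182, its IRI+Hemin replicate 4 (-2.33) lay within the Hemin range, and 1 of its 2 probes was at background. In 5 of the 6 the highest Control value was that of replicate 2, the array with the highest Rn18s of its group (7.74), and each of the 6 differences passed with any 1 of the 16 arrays left out.

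By the same criterion the 6 largest negative differences were those of Ifit1, Oasl1, Ccl2, Ifit2, Ces1 and Calml3. Ifit1, an interferon-induced gene whose product binds viral RNA, was at -1.20, -1.34, -1.30 and -1.10 in Hemin and -3.04, -3.15, -3.31 and -3.13 in IRI+Hemin, a fall of 1.92 ± 0.63. Without hemin it was at -1.67 to -2.21 in Control, and in IRI the first 2 arrays were high (1.31 and 0.66) and the others low (-2.92 and -2.22). The difference of -3.12 (adjusted p = 0.0403) passed in 2 of 16 refits with 1 array left out. Oasl1 differed by -2.58 and Ifit2 by -2.27, again highest on IRI replicates 1 and 2, and passed in 12 and 13 of 16. For Ccl2 the rise was 2.49 with hemin and 4.83 without, a difference of -2.34 (adjusted p = 0.0323) that passed in 9 of 16. The carboxylesterase Ces1 (Ces1g) at -2.06 passed in 7 and the calmodulin-like Calml3 at -2.05 in 14.

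**Figure D5:**
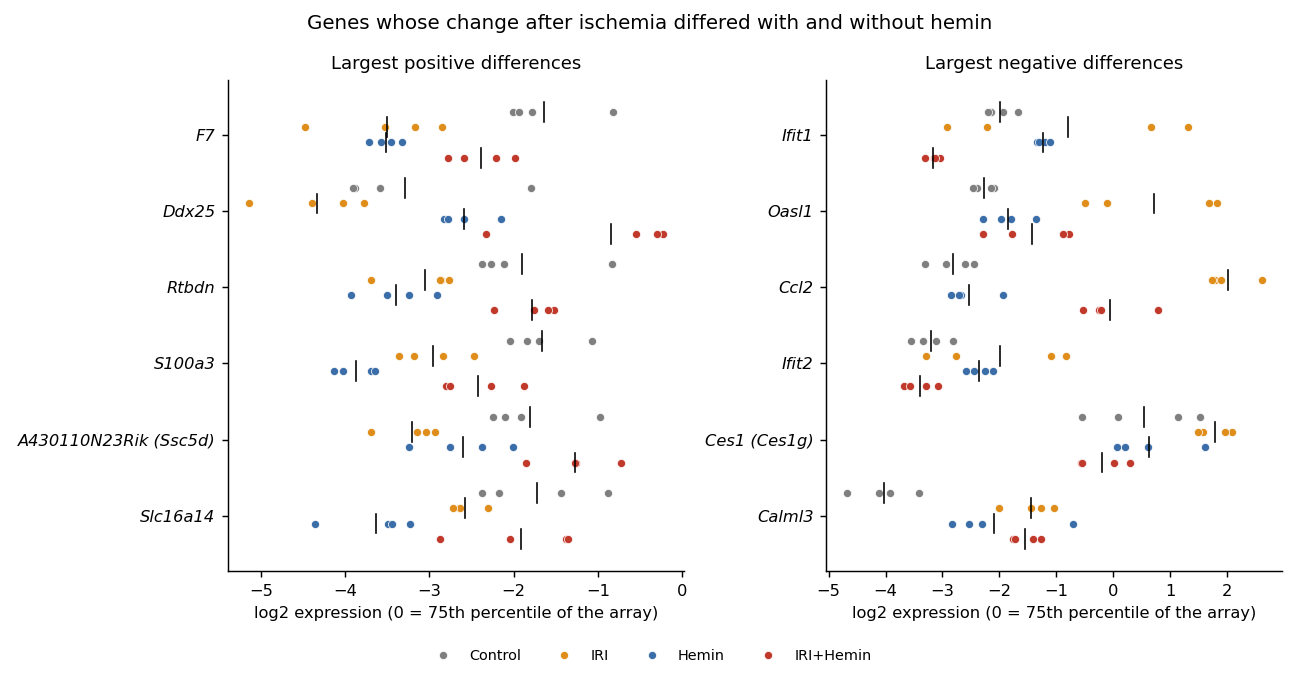
Log2 expression (x axis) of the genes with the largest positive (left) and negative (right) difference between the ischemia effect with and without hemin, 1 point per array and 4 arrays per group, black bars giving the means. F7 has IRI+Hemin above Hemin and IRI below Control, whereas Ifit1 has IRI+Hemin below Hemin and its IRI arrays split between 2 high (0.66 and 1.31) and 2 low values (-2.92 and -2.22).

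Of 17 genes of heme and iron handling 2 had a positive difference, as had 2 of 22 of fatty acid oxidation, against 5.83% of all genes. Alas1 rose by 1.09 with hemin and stood at -0.91 without, a difference of 2.00 (adjusted p = 0.000733). Its levels were 3.72, 3.68, 3.67 and 3.46 in Hemin and 5.17, 4.87, 4.56 and 4.32 in IRI+Hemin, groups that did not overlap. Cp differed by 1.37, the coactivator of mitochondrial genes Ppargc1a by 1.51, Fga by 2.20 and the peroxisomal enzyme Ehhadh by 0.86, the last pair passing in 4 of 16 refits with 1 array left out. Of tubule carriers, Slco4c1 (2.23), Slc5a12 (1.27), Slc13a1 (1.13), Slc4a4 (1.05) and Dab2 (0.57) differed upward and Slc13a3 (-0.81) downward, 5 and 1 of 31, of which Dab2 passed in 3 and Slc13a3 in 6 of 16 refits. The 3 Slc4a4 probes, all well above background on the 8 main arrays, disagreed in IRI+Hemin minus Hemin, at 0.79, -0.54 and -0.30. On the negative side were Fosl2 (-1.34, adjusted p = 0.000491), Klf5 (-1.33), Atf4 (-1.21), Trib3 (-1.84), Gadd45a (-1.38), Bbc3 (-1.20), Csf1 (-1.06) and Mcm3 (-0.89), where Trib3 passed in 2, Csf1 in 6 and Gadd45a in 8 of 16. Fosl2 rose in both settings, by 1.73 with hemin and 3.07 without.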

How the data were processed

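RNA of mouse kidneys was measured on 1-colour Agilent arrays, 1 array per sample, in 5 groups of 4. Per the labels and the submitters' processing notes, Agilent Feature Extraction (9.5.3.1) made the deposited intensity values, a processed signal that is background-subtracted. The deposited matrix of log2 values holds these signals with 18.1% blank (99.75% of the other values equal log2 of the signal within 0.01), unscaled, and served as an alternative. Here control spots and spots flagged as uneven or as population outliers were removed, spots of a probe averaged, signals divided by the 75th percentile of the array, probes of a gene averaged and log2 taken. A gene was tested with at most 1 missing value and at least 3 arrays of either group well above background. Group means were fitted to all 20 arrays with limma (3.58.1, R 4.3.3) and p-values adjusted by Benjamini-Hochberg. The fit was checked on simulated data. Of 27827 gene names, 19707 had a current symbol and 3014 an older one in RefSeq tables. Named genes were the 12 strongest called rises and 12 strongest called falls, limited to genes that have a current symbol or synonym, separate groups and signal well above background on all 8 arrays, up to 4 called members of each gene list with further members where its count needs them, the genes of quantitative RT-PCR, the 6 largest differences each way that are well above background on all 16 arrays, the cell type markers and the 6 largest bounds. The members and the lists were chosen with earlier results of these data known. Alternatives covered background correction, normalization, probe summary, filters, fold cutoffs, SAM, a replicate block and each array left out. Results of some genes are not reported here.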

Additional observations from a re-analysis of the deposited data

Results flagged for a closer look

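Of the 258 genes named in the results above, 33 had a change after ischemia that differed between hemin-treated and untreated mice by the limma test of the difference (adjusted p under 0.05 over all genes tested), 16 of them positive and 17 negative. The positive log2 differences were 3.00 for F7, 2.78 for Ddx25, 2.77 for Rtbdn, 2.75 for S100a3, 2.71 for A430110N23Rik, 2.57 for Slc16a14, 2.23 for Slco4c1, 2.20 for Fga, 2.00 for Alas1, 1.51 for Ppargc1a, 1.37 for Cp, 1.27 for Slc5a12, 1.13 for Slc13a1, 1.05 for Slc4a4, 0.86 for Ehhadh and 0.57 for Dab2. The negative ones were -3.12 for Ifit1, -2.58 for Oasl1, -2.34 for Ccl2, -2.27 for Ifit2, -2.06 for Ces1, -2.05 for Calml3, -1.84 for Trib3, -1.39 for Tyw3, -1.38 for Gadd45a, -1.34 for Fosl2, -1.33 for Klf5, -1.21 for Atf4, -1.20 for Bbc3, -1.06 for Csf1, -1.01 for Dusp14, -0.89 for Mcm3 and -0.81 for Slc13a3. With each of the 16 arrays left out in turn, 16 of the 33 passed every time and 17 did not, Ifit1 and Trib3 passing in 2 of 16 refits.

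Single arrays standing apart within a group of 4 were searched for in 550 sets of 4 values, the named genes and the marker sums in each of the 2 main groups. In 31 sets the gap between the outermost array and its nearest neighbour exceeded Dixon's 95% critical value as a share of the range of the group, and chance alone gives about 1 set in 20. In IRI+Hemin the lowest array stood apart, by the given share of the range, in 5430425J12Rik (replicate 4, 0.868), Akr1c18 (replicate 2, 0.909), Areg (replicate 1, 0.864), Atf4 (replicate 4, 0.896), Cubn (replicate 2, 0.937), Ddx25 (replicate 4, 0.847), Edn1 (replicate 4, 0.9), Ednrb (replicate 4, 0.937), Fth1 (replicate 3, 0.921), Hspb1 (replicate 4, 0.832), Il34 (replicate 4, 0.942), Osgin1 (replicate 2, 0.838) and Plat (replicate 4, 0.831). In IRI+Hemin the highest array stood apart, by the given share of the range, in Il6st (replicate 2, 0.85), Nrg1 (replicate 1, 0.913) and Trib3 (replicate 1, 0.883). In Hemin the lowest array stood apart, by the given share of the range, in Calr (replicate 3, 0.855), Nos3 (replicate 2, 0.886), Pax8 (replicate 1, 0.83) and Slc22a6 (replicate 4, 0.848). In Hemin the highest array stood apart, by the given share of the range, in 3110045C21Rik (replicate 1, 0.897), Cd14 (replicate 3, 0.926), Cdkn1a (replicate 4, 0.925), Gsta1 (replicate 4, 0.851), Gsta2 (replicate 4, 0.864), Mafg (replicate 2, 0.903), Osgin1 (replicate 3, 0.976), Osmr (replicate 3, 0.873), Plau (replicate 1, 0.837) and Ptgs2 (replicate 3, 0.908). The red blood cell sum was 239 times the 75th percentile on IRI+Hemin replicate 2 and 60.4 to 88.9 on the others, a share of 0.841.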

How the results depend on the processing

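The alternatives kept the direction of nearly all named calls but moved the number of calls. After normexp background correction with an offset of 50 the counts were 483 higher and 354 lower in IRI+Hemin vs Hemin, 446 and 151 in IRI vs Control, and 117 positive and 29 negative for the difference. With no normalization between arrays the difference was called in 321 and 84 genes. Quantile normalization left 1487 falls in IRI vs Control. The deposited log2 matrix gave 627 rises in IRI vs Control and 114 negative differences. With genes required to be well above background on all arrays of the comparison, which tests fewer genes, 935 fell in IRI+Hemin vs Hemin and 1267 in IRI vs Control. Without a fold cutoff the counts were 3068 and 5196, and 3022 and 6003. At 3-fold for rises they were 428 and 495, and at least 2-fold left 161 negative differences. SAM at a median false discovery rate of 0 called 676 and 766 in IRI+Hemin vs Hemin. With each array omitted in turn there were 1004 to 1207 rises and 1502 to 1658 falls in IRI+Hemin vs Hemin, and 754 to 1102 positive and 222 to 575 negative differences, the extremes of the last being without Hemin replicate 3 and without IRI replicate 4, with 235 without Hemin replicate 1. Among the called genes that were followed the sign turned in 2. Top2a, a cell cycle gene at background in IRI+Hemin, went from -1.01 to 0.016 after normexp correction, for which the cause was not tested. Klf5 went from 1.91 to -0.52 in the deposited matrix, where its brighter probe is blank on 2 of 4 IRI+Hemin arrays and its dimmer probe on all Hemin arrays. Uncalled genes crossed 0 too, such as Lrp2 (-0.68, highest 1.01) and Havcr1 (0.48, lowest -0.40). Of 222 called genes that were followed, 36 lost their call without some array and 87 under some other setting.

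Same-numbered arrays correlated at r = -0.0933 to 0.0544 between IRI+Hemin and Hemin and at -0.0492 to 0.193 between IRI and Control, not over 0.1 in every pair, and the number was taken as a name. A replicate block gave 1067 and 1571 calls in IRI+Hemin vs Hemin, 1050 and 2525 in IRI vs Control, and 995 and 283 for the difference. Slide as a random block could not be fitted, since no group spans slides. The number of arrays limits the precision, and of the 1112 positive differences 729 were well above background on all 16 arrays.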
